A study of Mus musculus with 60 samples.

Results

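Nodal is a secreted ligand of the TGF-beta family, and the 7 genes described here carry its signal or restrain it: Nodal itself, its co-receptor Tdgf1 (Cripto), the type I receptor Acvr1b (ALK4), the type II receptor Acvr2b, the secreted antagonists Lefty1 and Lefty2, and the inhibitory Smad Smad7. They were chosen by name, with earlier results of these data known. They were matched to 7 of the 56633 features (genes and repeat subfamilies) of the deposited count tables. All 7 passed the filter on low counts in every comparison. Nodal binds a complex of type I and type II receptors, for which Cripto acts as co-receptor, and the activated receptor phosphorylates SMAD2 and SMAD3. These enter the nucleus with SMAD4 and act on chromatin with partners such as FOXH1. Among the best known targets are Nodal and the Lefty genes themselves, so that the pathway feeds back on itself in both directions. Mouse embryonic stem cells make Nodal and Cripto as they self-renew, and the pathway is known for its part in the formation of mesendoderm and of the left-right axis.

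RNA was sequenced from E14JU mouse embryonic stem cells (129/Ola) that carry a dTAG degron on POLE4, a histone-fold subunit of the leading-strand DNA polymerase epsilon that takes part in the recycling of parental histones. Cells were given DMSO (Ctrl) or 1 µM dTAG-13, which degrades the tagged protein (dPOLE4). The same degron was studied in cells with the MCM2-2A mutation, which disrupts histone binding by the replicative helicase subunit MCM2 and with it recycling to the lagging strand (Ctrl MCM2-2A and dPOLE4 MCM2-2A). The titles name 1 cell line for each genetic background, so the MCM2-2A allele cannot be told apart from other differences between these cell lines. All groups, controls included, carry the POLE4 degron. Samples were taken after 24 h of DMSO or dTAG-13 in serum and LIF (T0) and then after 12, 24 and 60 h of retinoic acid (RA) without LIF (T12, T24 and T60), and in a separate experiment after 96 h in serum and LIF. Each of the 20 groups held 3 libraries. LIF was withdrawn as RA was added, and no group had only 1 of these changes. In the RA steps, RA, loss of LIF and time in culture therefore cannot be told apart. The titles and the series description name the RA times 12, 24 and 60 h, and the treatment text of the records gives a partly different set, so the titles were followed.

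Totals ranged from 10461077 to 46609151 counts in the 48 libraries of the RA experiment and from 7126100 to 23598266 in the 12 libraries of the 96 h experiment, and the lowest count of Tdgf1, the member with the lowest count, was 39 in a Ctrl T60 library. No 2 libraries of a group agreed within sampling noise. Levels are given as CPM (counts scaled to library size, TMM-normalised within each experiment). Levels of different genes are compared only as RPKM, per length of their exons. A gene is called where edgeR's quasi-likelihood test gave a Benjamini-Hochberg adjusted p under 0.01 and a log2 fold change beyond 0.58 in either direction. Pole4 RNA did not separate dTAG-13 from DMSO, since the degron acts on the protein: at T0 it was 52.4 ± 2.28 CPM in Ctrl and 52.4 ± 4.92 CPM in dPOLE4 (mean ± SD, n = 3). These RNA data therefore do not check the depletion label. Ctrl MCM2-2A had less RNA than Ctrl for both genes, at 33.1 ± 1.03 CPM of Pole4, and at 311 ± 34.2 CPM of Mcm2 against 497 ± 10.7 CPM. All 8 pluripotency markers looked at were above 1 CPM in each of the 20 groups, and all 5 RA-response markers rose by T12 in each line, from a sum of 13.1 to 20.9 CPM to 479 to 557 CPM in Ctrl.

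In self-renewing Ctrl cells Tdgf1 was the most highly expressed member per length, at 122 ± 8.05 RPKM (mean ± SD, n = 3). Smad7 and Nodal followed at 28.6 ± 0.62 and 26.1 ± 1.28 RPKM. Lefty1 stood at 17.3 ± 4.04 RPKM, above Lefty2 at 10.1 ± 1.64 RPKM, and the receptor genes Acvr2b and Acvr1b were lowest, at 8.55 ± 0.306 and 7.2 ± 0.307 RPKM. The receptors were present in every group of both experiments, which were normalised separately, with group means of 5.74 to 15.4 RPKM for Acvr1b and 8.32 to 15.0 RPKM for Acvr2b. After 60 h of RA the order had turned: Smad7, Acvr2b and Acvr1b led at 24.3 ± 1.94, 15 ± 1.12 and 11.8 ± 1.38 RPKM, and Nodal, Lefty1, Lefty2 and Tdgf1 stood at 5.35 ± 0.523, 4.13 ± 0.872, 2.78 ± 0.795 and 1.73 ± 0.325 RPKM. The ranges of mean ± SD overlapped between Acvr2b and Lefty2 at T0 and, at T60, between Tdgf1 and Lefty2, Lefty2 and Lefty1, and Lefty1 and Nodal, so these neighbours were not separated by the spread between libraries.

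**Figure D1:**
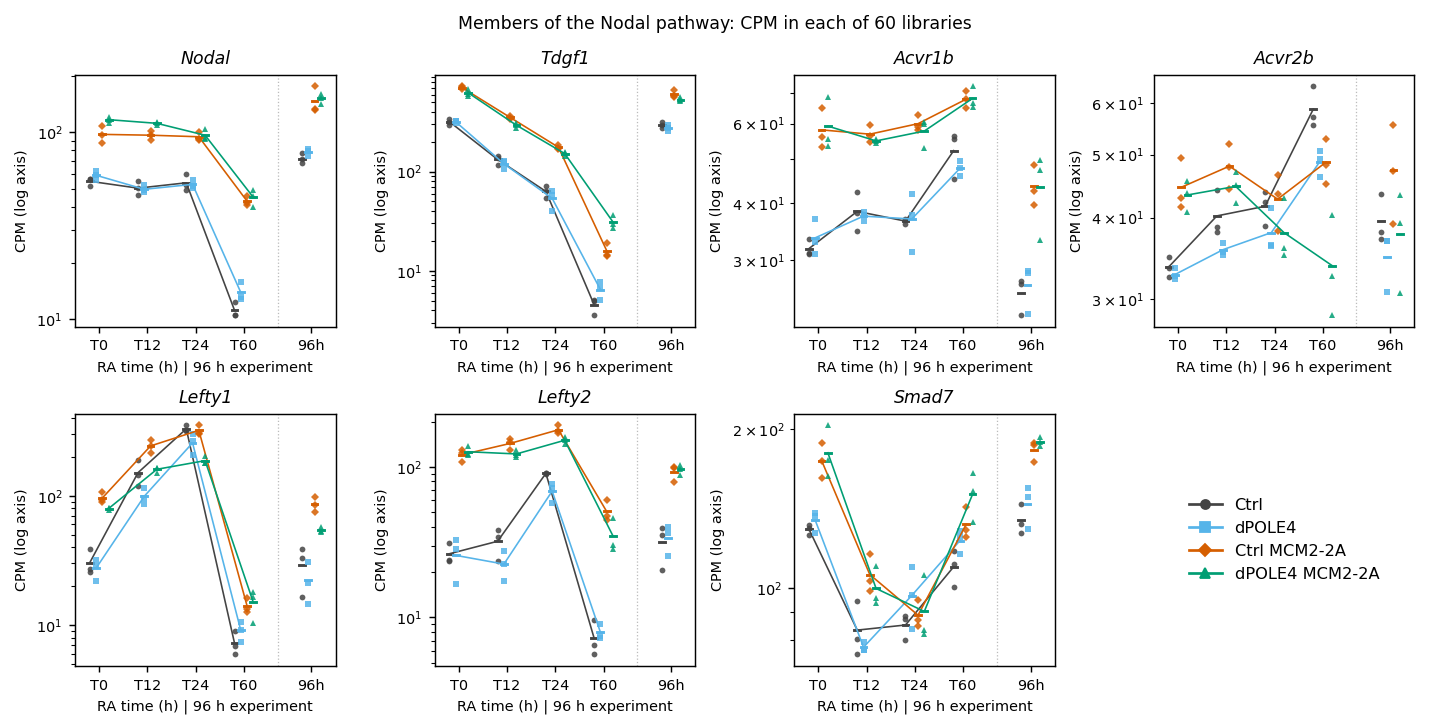
CPM (log axis) of the 7 genes in each of the 60 libraries, by time of RA treatment (T0 to T60) and, right of the dotted line, in the separate 96 h experiment; points are libraries, short bars are means of 3, and lines join the means of one line. Lefty1 rises at T12 and T24 and Nodal, Tdgf1, Lefty1 and Lefty2 are low at T60, while the MCM2-2A lines (orange, green) lie above the wild-type lines for Nodal, Tdgf1 and Lefty2 at each time.

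The ligand gene Nodal (ENSMUSG00000037171, chromosome 10:61417972-61425338 of GRCm38, plus strand) was not called to change over the first 24 h of RA and fell between 24 and 60 h. In Ctrl the libraries held 56, 51.6 and 56.4 CPM at T0, 54.6, 50.0 and 46 CPM at T12, 59.6, 49.2 and 52 CPM at T24 and 12.5, 10.6 and 10.6 CPM at T60. The first 3 times overlapped and T60 stood apart below them. The fall from T24 to T60 was called in each line, with log2 fold changes of -2.23 ± 0.10 (SE) in Ctrl, -1.92 ± 0.087 in dPOLE4, -1.13 ± 0.063 in Ctrl MCM2-2A and -1.1 ± 0.093 in dPOLE4 MCM2-2A (adjusted p at most 2.70e-06). Neither of the earlier steps was called for Nodal in any line.

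Nodal was higher in Ctrl MCM2-2A than in Ctrl at all 5 times, without overlap between the groups. At T0 the Ctrl MCM2-2A libraries held 108, 87.7 and 96.1 CPM, 1.76 times the Ctrl mean (log2 fold change 0.82 ± 0.069, adjusted p = 2.51e-06). At T60 they held 40.8, 45.8 and 41.8 CPM, 3.82 times Ctrl (log2 fold change 1.93 ± 0.095, adjusted p = 2.48e-09). The gap was thus widest at T60, where Nodal had fallen less in the mutant line. At T12, T24 and 96 h the log2 fold changes were 0.94 ± 0.076, 0.84 ± 0.068 and 1.03 ± 0.11, and all 3 were called. Ctrl MCM2-2A held 96.3 ± 5.0 CPM at T12 and 94.4 ± 5.04 CPM at T24. The 96 h libraries held 77.2, 71.5 and 68.1 CPM in Ctrl and 176, 133 and 131 CPM in Ctrl MCM2-2A. With POLE4 depleted, the Nodal means (± SD, n = 3) were 58.8 ± 3.0, 49.5 ± 2.24, 52.6 ± 2.69 and 13.9 ± 1.65 CPM at T0, T12, T24 and T60 and 78.5 ± 3.62 CPM at 96 h in dPOLE4. The dPOLE4 MCM2-2A means were 116 ± 4.21, 111 ± 2.24, 96.2 ± 6.51 and 44.9 ± 4.69 CPM at T0, T12, T24 and T60 and 151 ± 9.12 CPM at 96 h. Within the RA experiment the lowest mean was in Ctrl T60, and the highest was in dPOLE4 MCM2-2A T0, whose libraries overlapped those of the next group, dPOLE4 MCM2-2A T12. Levels at 96 h were normalised separately and are not ranked with these.

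Tdgf1 (ENSMUSG00000032494, chromosome 9:110939603-110946158, minus strand), which codes for the membrane-anchored co-receptor Cripto, fell at each RA step in each line, and all 12 falls were called. In Ctrl it went from 298, 319.9 and 340.5 CPM at T0 to 144, 136 and 118 at T12, 71.5, 63.2 and 54.8 at T24 and 4.99, 3.56 and 5.08 at T60. No library of one time overlapped the next. In Ctrl MCM2-2A it went from 733, 678 and 708 CPM to 341, 352 and 366, 169, 175 and 186 and 19.2, 14.1 and 14.6 CPM. The mutant line was higher at all 5 times, by log2 fold changes of 1.13 ± 0.058 at T0, 1.42 ± 0.077 at T12, 1.5 ± 0.075 at T24, 1.81 ± 0.16 at T60 and 1.05 ± 0.088 at 96 h (adjusted p at most 3.28e-06). At 96 h this was 670.0, 578 and 574 CPM against 276, 318 and 299 CPM in Ctrl. With POLE4 depleted, the Tdgf1 means (± SD, n = 3) were 319 ± 10.5, 120.1 ± 11.5, 53.9 ± 12.4 and 6.46 ± 1.34 CPM at T0, T12, T24 and T60 and 276 ± 18.1 CPM at 96 h in dPOLE4. For dPOLE4 MCM2-2A the means were 626 ± 48.9, 294 ± 20.0, 152 ± 7.34 and 31.1 ± 5.03 CPM at T0, T12, T24 and T60 and 536 ± 23.7 CPM at 96 h. Within the RA experiment the means of Tdgf1 were lowest in Ctrl T60, which overlapped dPOLE4 T60, and highest in Ctrl MCM2-2A T0, which overlapped dPOLE4 MCM2-2A T0. The processed pseudogene Tdgf1-ps1 on chromosome 16 shares 86 of its 414 windows of 100 bases, the length of 1 read, with annotated Tdgf1 transcripts. Its count was a median of 6.23% of that of Tdgf1 in the RA experiment and 9.56% in the 96 h experiment, so a part of the Tdgf1 signal cannot be assigned with certainty.

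Over the 16 group means of the RA experiment Nodal and Tdgf1 had a Pearson r of 0.892 on log2 CPM. It is given as a description, since groups share lines and times. Among 20347 genes Tdgf1 ranked 460th for Nodal, and Nodal ranked 1316th for Tdgf1. Over the first 24 h of RA the 2 genes parted, since Tdgf1 fell and Nodal was not called to change. The 250 bases before the annotated start of each, from RefSeq (GRCm38.p6), are shown so that their DNA can be set beside these values. Capitals mark matches, on either strand, to AATNNACA, a form of the FOXH1 motif, or to CAGAC, a SMAD-binding motif.
Tdgf1 (chr9:110946159-110946408, minus strand): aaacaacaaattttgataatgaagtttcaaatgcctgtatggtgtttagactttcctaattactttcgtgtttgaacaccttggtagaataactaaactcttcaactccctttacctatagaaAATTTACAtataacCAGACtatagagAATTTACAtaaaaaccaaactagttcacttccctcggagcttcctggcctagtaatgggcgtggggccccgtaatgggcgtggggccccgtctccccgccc
Nodal (chr10:61417722-61417971, plus strand): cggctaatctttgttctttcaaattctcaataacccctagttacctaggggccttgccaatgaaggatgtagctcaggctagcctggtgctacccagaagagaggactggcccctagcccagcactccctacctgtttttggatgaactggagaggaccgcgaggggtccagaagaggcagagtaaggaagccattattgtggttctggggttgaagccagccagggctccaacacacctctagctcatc
The Tdgf1 window held 2 FOXH1 matches, which begin 127 and 101 bases before the start, and 1 SMAD match between them, 113 bases before it, with no overlap. The Nodal window held neither motif, Acvr2b held 1 SMAD match and Acvr1b none. Of 32851 RefSeq promoters, 10.9% held the FOXH1 letters and 42.2% the SMAD letters in the same window. A match is a stretch of letters and not a site of binding. Promoters of Lefty1, Lefty2 and Smad7 were not analysed here.

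Lefty1 and Lefty2 code for secreted antagonists that bind Nodal and its co-receptor, and both lie on chromosome 1 of GRCm38. Lefty2 (ENSMUSG00000066652) lies at chromosome 1:180893108-180899103 and Lefty1 (ENSMUSG00000038793) at chromosome 1:180935022-180938400, both on the plus strand. They lie 35918 bases apart and share 97 windows of 100 bases, which is 5.85% of the windows of Lefty1 and 3.86% of those of Lefty2, and reads from these windows cannot be assigned to one of the genes. In Ctrl both were called higher with RA before they fell, Lefty1 from T12 and Lefty2 at T24.

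Lefty1 rose in the first 12 h. In Ctrl it went from 25.6, 38.6 and 27.1 CPM at T0 to 146, 188 and 119 CPM at T12 and 315, 349 and 322 CPM at T24, and then fell to 8.94, 5.94 and 6.91 CPM at T60. No library of one time overlapped the next. The log2 fold changes of these steps were 2.31 ± 0.17, 1.12 ± 0.13 and -5.45 ± 0.10, so the last step left 0.0228 times the T24 level (adjusted p = 2.64e-14). Lefty2 did not pass the test in the first 12 h in Ctrl, with 23.7, 31.4 and 24.2 CPM at T0 and 34.2, 38.3 and 23.6 CPM at T12, which overlapped (log2 fold change 0.28 ± 0.16, adjusted p = 0.188). It reached 91, 89.9 and 90.9 CPM at T24 (log2 fold change 1.5 ± 0.13) and fell to 9.61, 5.66 and 6.52 CPM at T60 (log2 fold change -3.58 ± 0.12). Per length, Lefty1 was a median of 1.67 times Lefty2 at T0 in Ctrl, 7.28 times at T12, 5.26 times at T24 and 1.56 times at T60.

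The antagonists were higher in Ctrl MCM2-2A than in Ctrl before RA. Lefty2 held 124, 129 and 108 CPM in Ctrl MCM2-2A at T0, 4.5 times Ctrl (log2 fold change 2.17 ± 0.10, adjusted p = 5.18e-08). Lefty1 held 107, 89.1 and 92.5 CPM, 3.13 times Ctrl (log2 fold change 1.65 ± 0.12, adjusted p = 1.04e-06). For neither gene did the groups overlap. In the 96 h experiment both were again called higher, with 16.5, 38.8 and 32.9 CPM of Lefty1 in Ctrl against 85.5, 98.1 and 75 CPM in Ctrl MCM2-2A, a log2 fold change of 1.57 ± 0.22. Lefty2 held 20.5, 35 and 39.4 CPM in Ctrl at 96 h against 79.2, 98.7 and 100.3 CPM in the mutant line (log2 fold change 1.57 ± 0.18). With POLE4 depleted, the Lefty1 means (± SD, n = 3) were 27.5 ± 5.09, 99.1 ± 15.2, 256 ± 46 and 9.11 ± 1.62 CPM at T0, T12, T24 and T60 and 22.1 ± 8.07 CPM at 96 h in dPOLE4. The same means in dPOLE4 MCM2-2A were 79.6 ± 1.68, 160.1 ± 8.7, 187 ± 13.7 and 15 ± 4.03 CPM at T0, T12, T24 and T60 and 54.5 ± 2.67 CPM at 96 h. The Lefty2 means were 25.8 ± 8.13, 22.6 ± 5.09, 69 ± 10.1 and 7.96 ± 0.959 CPM at T0, T12, T24 and T60 and 33.9 ± 7.45 CPM at 96 h in dPOLE4. In dPOLE4 MCM2-2A they were 126 ± 9.24, 122 ± 6.79, 150.3 ± 7.83 and 34.8 ± 9.57 CPM at T0, T12, T24 and T60 and 96.4 ± 7.65 CPM at 96 h. Within the RA experiment Lefty1 was highest in Ctrl T24, with Ctrl MCM2-2A T24 next to it and overlapping it, and Lefty2 was highest in Ctrl MCM2-2A T24, apart from dPOLE4 MCM2-2A T24. Both were lowest in Ctrl T60, which overlapped dPOLE4 T60.

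During RA the 2 genes parted. Lefty1 in Ctrl MCM2-2A held 241, 215 and 272 CPM at T12 and 302, 350.2 and 308 CPM at T24, so at T24 the lines overlapped (log2 fold change -0.01 ± 0.058, 95% interval -0.13 to 0.10). The difference at T12 was called (log2 fold change 0.70 ± 0.14, adjusted p = 0.00297). That call was lost without Ctrl T12 replicate 1, without Ctrl T12 replicate 3 or without Ctrl MCM2-2A T12 replicate 1 (log2 fold changes 0.67, 0.55 and 0.70). At T60 Lefty1 held 16.3, 13.3 and 12.7 CPM, again above Ctrl (log2 fold change 0.94 ± 0.15, adjusted p = 0.000128). Lefty2 stayed higher in Ctrl MCM2-2A throughout, at 145, 130.3 and 154 CPM at T12, 168, 189 and 173 CPM at T24 and 60.2, 44.4 and 47.1 CPM at T60. Its difference from Ctrl was smallest at T24 (log2 fold change 0.99 ± 0.052) and largest at T60 (2.76 ± 0.16, 6.79 times Ctrl, adjusted p = 8.62e-09). The ratio of Lefty1 to Lefty2 in RPKM was accordingly lower in Ctrl MCM2-2A than in Ctrl during RA. Its medians were 1.27 at T0, 2.46 at T12, 2.67 at T24 and 0.401 at T60, where Lefty2 exceeded Lefty1. At T0 and at each RA time no library of Ctrl MCM2-2A had a ratio as high as any library of Ctrl. At 96 h the ratios overlapped, at 1.2 to 1.64 in Ctrl and 1.11 to 1.6 in Ctrl MCM2-2A.

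**Figure D2:**
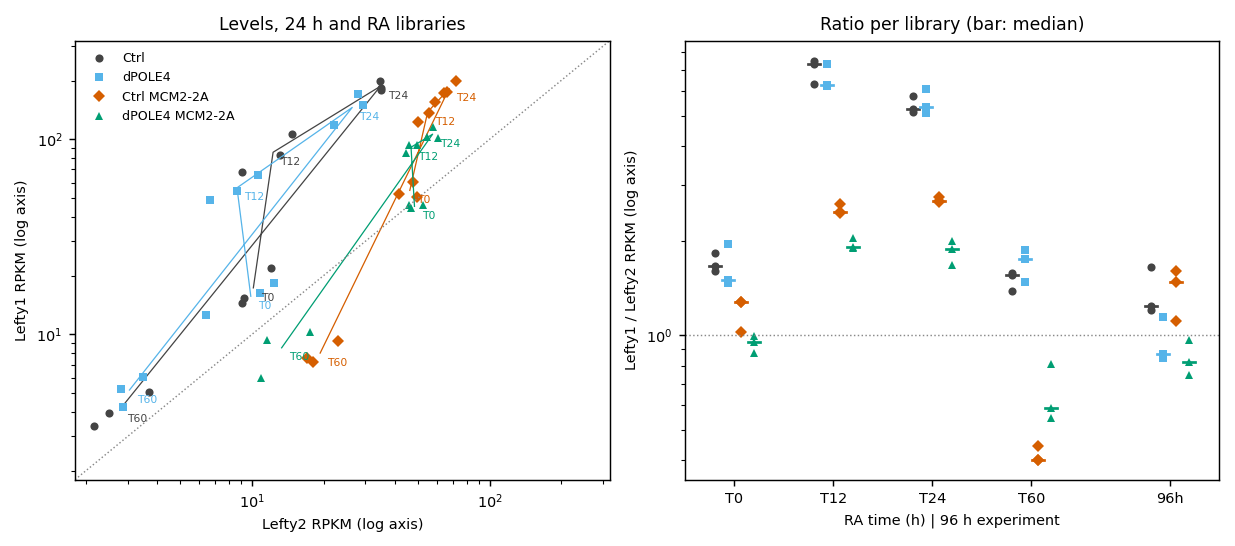
Left, Lefty1 against Lefty2 in RPKM (both log axes) for the 48 libraries of the RA experiment, with lines joining the means of one line from T0 to T60 and a dotted line of equal level; right, the ratio of Lefty1 to Lefty2 (log axis) in each of the 60 libraries, with bars at the median of 3. The ratio peaks at T12 in Ctrl (7.28) and lies below 1 at T60 in Ctrl MCM2-2A (0.401) and dPOLE4 MCM2-2A (0.587).

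Acvr1b (ENSMUSG00000000532, chromosome 15:101174067-101213684, plus strand) codes for the type I receptor ALK4. It was called higher in Ctrl MCM2-2A at T0, T24 and 96 h. The T0 libraries held 30.9, 31.2 and 33.4 CPM in Ctrl and 64.8, 56.1 and 53.4 CPM in Ctrl MCM2-2A, without overlap. The log2 fold changes were 0.85 ± 0.071 at T0, 0.74 ± 0.057 at T24 and 0.80 ± 0.11 at 96 h, and 0.57 ± 0.081 at T12 and 0.39 ± 0.080 at T60, which did not pass the fold change threshold. At T12 it was called with DESeq2 size factors, with TMM from genes only and with all groups in the fit, and also without Ctrl T12 replicate 2 or Ctrl MCM2-2A T12 replicate 2 (log2 fold changes 0.58 to 0.65). The whole of chromosome 15 was higher in Ctrl MCM2-2A: the median log2 fold change of its 678 tested genes at T0 was 0.56, and 87% of them were higher. Relative to the chromosome median, Acvr1b was higher by 0.29 at T0, 0.21 at T24 and 0.28 at 96 h, all short of the threshold. The genes tested within 1 Mb of it had median log2 fold changes of 1.04 at T0, 0.62 at T12, 0.96 at T24, 0.71 at T60 and 0.62 at 96 h, so Acvr1b lay below the median of its neighbours at T0, T12, T24 and T60 and above it at 96 h. For Nodal, Tdgf1, Lefty1 and Lefty2 the medians of their own chromosomes lay between -0.01 and 0.14 at the 5 times, and those within 1 Mb between 0.09 and 0.31. The part of the chromosome in the Acvr1b result was not tested further. Acvr1b was not called at any RA step, its largest being from T24 to T60 in Ctrl (log2 fold change 0.53 ± 0.078, called at 0.61 without Ctrl T60 replicate 2). The Acvr1b means (± SD, n = 3) in Ctrl were 31.8 ± 1.36, 38.4 ± 3.8, 36.6 ± 0.479 and 52.3 ± 6.08 CPM at T0, T12, T24 and T60 and 25.4 ± 2.34 CPM at 96 h. Those in Ctrl MCM2-2A were 58.1 ± 5.96, 56.8 ± 2.59, 60.0 ± 2.45 and 67.9 ± 2.82 CPM at T0, T12, T24 and T60 and 43.6 ± 4.52 CPM at 96 h. With POLE4 depleted, they were 33.6 ± 3.11, 37.5 ± 0.85, 37 ± 5.36 and 47.8 ± 1.89 CPM at T0, T12, T24 and T60 and 26.4 ± 3.11 CPM at 96 h in dPOLE4. In dPOLE4 MCM2-2A they were 59.2 ± 8.26, 54.9 ± 0.603, 57.8 ± 4.12 and 68.2 ± 3.9 CPM at T0, T12, T24 and T60 and 43.4 ± 9.03 CPM at 96 h. Within the RA experiment the means were lowest in Ctrl T0 and dPOLE4 T0 and highest in the MCM2-2A groups at T60, and in each of these pairs the libraries overlapped.

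Acvr2b (ENSMUSG00000061393, chromosome 9:119402118-119434995, plus strand), which codes for a type II receptor, was called in no comparison. In Ctrl it held 32.4, 34.8 and 33.5 CPM at T0 and 63.7, 55.4 and 57.1 CPM at T60. The step from T24 to T60 had a log2 fold change of 0.51 ± 0.072 in Ctrl (adjusted p = 1.69e-05), of 0.19 ± 0.078 in Ctrl MCM2-2A and of -0.16 ± 0.13 in dPOLE4 MCM2-2A. Its difference between Ctrl MCM2-2A and Ctrl ran from 0.38 ± 0.077 at T0 to -0.27 ± 0.080 at T60, each within the fold change threshold. The groups overlapped at T24 and 96 h. The antisense gene Gm47320 that overlaps it had 0 counts in every library. The Acvr2b means (± SD, n = 3) in Ctrl were 33.6 ± 1.2, 40.2 ± 3.31, 41.6 ± 2.53 and 58.8 ± 4.4 CPM at T0, T12, T24 and T60 and 39.5 ± 3.4 CPM at 96 h. Those in Ctrl MCM2-2A were 44.5 ± 4.2, 48 ± 3.78, 42.7 ± 4.29 and 48.7 ± 3.91 CPM at T0, T12, T24 and T60 and 47.3 ± 8.26 CPM at 96 h. With POLE4 depleted, they were 32.7 ± 0.676, 35.7 ± 0.795, 37.9 ± 2.96 and 48.7 ± 2.27 CPM at T0, T12, T24 and T60 and 34.8 ± 3.53 CPM at 96 h in dPOLE4. In dPOLE4 MCM2-2A they were 43.3 ± 2.42, 44.7 ± 2.45, 37.9 ± 4.28 and 33.7 ± 6.09 CPM at T0, T12, T24 and T60 and 37.7 ± 6.44 CPM at 96 h. Within the RA experiment the highest mean was in Ctrl T60, apart from dPOLE4 T60, and the lowest in dPOLE4 T0, which overlapped Ctrl T0.

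Smad7 (ENSMUSG00000025880, on chromosome 18) codes for an inhibitory Smad that competes for activated type I receptors. It fell in the first 12 h of RA in every line. In Ctrl it went from 126, 129.8 and 132 CPM at T0 to 80.3, 94.7 and 75 CPM at T12, and in dPOLE4 MCM2-2A from 203, 174 and 163 to 93.7, 110.2 and 95.8 CPM. The groups did not overlap. The log2 fold changes were -0.63 ± 0.077 in Ctrl, -0.80 ± 0.053 in dPOLE4, -0.68 ± 0.074 in Ctrl MCM2-2A and -0.84 ± 0.089 in dPOLE4 MCM2-2A (adjusted p at most 5.90e-05). The call in Ctrl was lost without Ctrl T12 replicate 3 (log2 fold change -0.56). From T24 to T60 Smad7 was called higher in dPOLE4 MCM2-2A (log2 fold change 0.74 ± 0.11, adjusted p = 0.00018), and in Ctrl MCM2-2A its value stood at the threshold (0.58 ± 0.062). It was not called between Ctrl MCM2-2A and Ctrl at any time, with log2 fold changes of 0.09 at T24 to 0.45 at 96 h. The Smad7 means (± SD, n = 3) in Ctrl were 129 ± 2.8, 83.4 ± 10.2, 85.2 ± 4.74 and 109.8 ± 8.75 CPM at T0, T12, T24 and T60 and 134 ± 8.75 CPM at 96 h. Those in Ctrl MCM2-2A were 174 ± 13.3, 106 ± 9.04, 89 ± 5.51 and 132 ± 9.01 CPM at T0, T12, T24 and T60 and 182 ± 8.07 CPM at 96 h. With POLE4 depleted, they were 134 ± 6.26, 77.4 ± 1.44, 96.9 ± 13 and 123 ± 6.52 CPM at T0, T12, T24 and T60 and 144 ± 13.3 CPM at 96 h in dPOLE4. In dPOLE4 MCM2-2A they were 180.1 ± 20.7, 99.9 ± 9.0, 90.4 ± 13.4 and 150.4 ± 16 CPM at T0, T12, T24 and T60 and 189 ± 3.62 CPM at 96 h. Within the RA experiment the lowest mean was in dPOLE4 T12, which overlapped Ctrl T12, and the highest in dPOLE4 MCM2-2A T0, which overlapped Ctrl MCM2-2A T0.

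Set against all features, the members' calls between Ctrl MCM2-2A and Ctrl stood as follows. The members were chosen with earlier results of these data known, so the shares describe these 7 genes and do not test the pathway. At T0 5 of 7 were called, all higher, against 18.9% of the 17972 features tested. At T12 4 of 7 were called higher, against 14.5% of all features, at T24 4 of 7 against 17.3%, at T60 4 of 7 against 16.9% and at 96 h 5 of 7 against 15.7%. The median log2 fold change of the 7 members was 0.85 at T0, 0.70 at T12, 0.74 at T24, 0.94 at T60 and 1.03 at 96 h, beside -0.02 to 0.01 over all features tested. Acvr1b, whose whole chromosome was higher in Ctrl MCM2-2A, was among the calls at T0, T24 and 96 h. It was also the median member at T0 and T24.

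**Figure D3:**
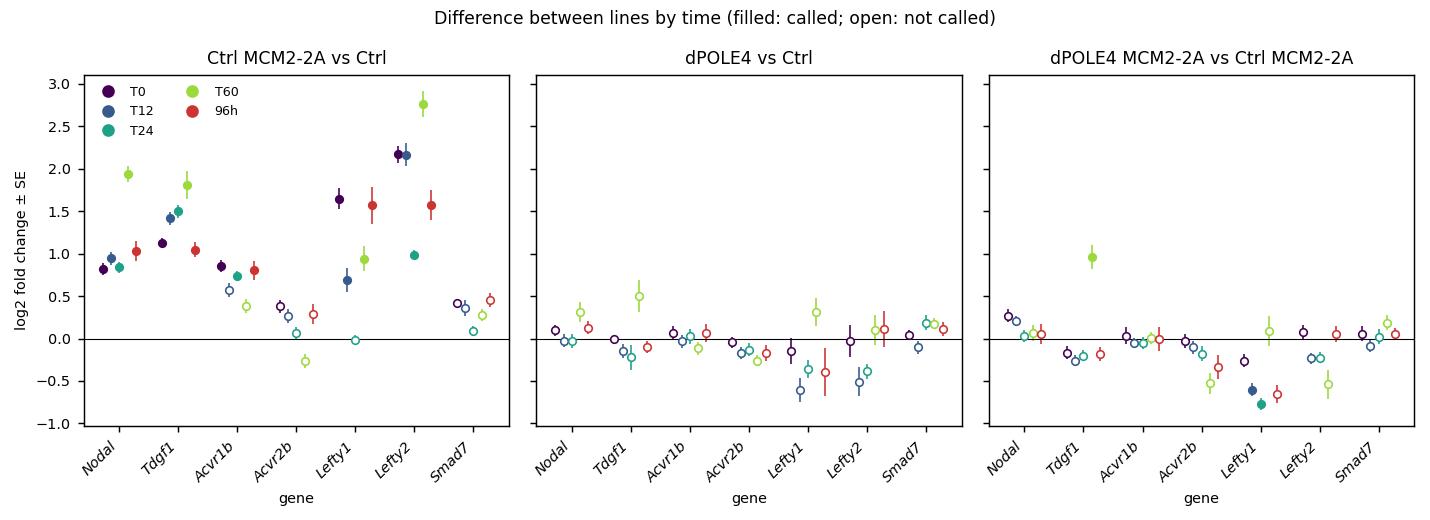
Log2 fold change (± SE) of each gene between Ctrl MCM2-2A and Ctrl, between dPOLE4 and Ctrl, and between dPOLE4 MCM2-2A and Ctrl MCM2-2A at T0, T12, T24, T60 and 96 h; filled points are called, open points are not. Nodal, Tdgf1 and Lefty2 are filled at all 5 times in the first panel, no point is filled in the second, and Lefty1 at T12 and T24 and Tdgf1 at T60 are filled in the third.

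Markers also differed between Ctrl MCM2-2A and Ctrl, and the direction varied with the list and the time. Of all features tested, 18.9% were called at T0, 16.9% at T60 and 15.7% at 96 h. The pluripotency counts at T0 and 96 h lay near these shares. At T0 the summed level of the 8 pluripotency markers was 3530 to 3650 CPM in Ctrl and 4060 to 4550 CPM in Ctrl MCM2-2A, with 2 of 8 called higher. At T60 it was 292 to 387 CPM in Ctrl and 672 to 843 CPM in Ctrl MCM2-2A, with 7 of 8 called higher. With 6 of 7 tested, primitive endoderm markers summed to 19.9 to 43.8 CPM in Ctrl and 45.2 to 61.2 CPM in Ctrl MCM2-2A at T0, with 4 called higher. They summed to 554 to 647 CPM in Ctrl T60 and 774 to 842 CPM in Ctrl MCM2-2A T60, with 4 of 7 called higher, and to 20.7 to 26.5 CPM against 54.1 to 66.3 CPM at 96 h, with 5 of the 6 tested called higher. At 96 h, where Nodal, Tdgf1, Lefty1 and Lefty2 were also called, the pluripotency sums overlapped, at 3660 to 3900 CPM in Ctrl and 3750 to 3870 CPM in Ctrl MCM2-2A, and 1 of 8 was called. The 5 mesoderm markers summed to 51.6 to 65.6 CPM in Ctrl and 10.4 to 14 CPM in Ctrl MCM2-2A at T0, with 4 called lower, and to 16.2 to 27.3 and 18.6 to 19.6 CPM at 96 h, with none called. Neural progenitor markers at T0 summed to 112 to 135 CPM in Ctrl and 47.6 to 55 CPM in the mutant line, with 2 of the 3 tested called lower, and fibroblast markers to 46.5 to 59.9 and 31.1 to 44 CPM, with 3 of the 4 tested called lower and 1 higher. At 96 h 1 of 3 neural markers was called lower and 1 of 3 fibroblast markers higher, and the sums of both lists overlapped. At T60 3 of 5 were called lower and 1 higher in each of these lists. Of 5 markers of 2-cell-like cells, 3 were called higher at T0 and 1 at 96 h, with overlapping sums. At T60 4 of them were called lower, at 222 to 302 CPM in Ctrl against 136 to 185 CPM in Ctrl MCM2-2A. Of 4 trophoblast markers tested, 1 was called higher and 2 lower at T0, and 2 higher and 1 lower at T60. No marker was at 0 in all libraries of a group. In these bulk samples a larger share of cells that express a gene and more RNA per cell cannot be told apart, and the part of these cell states in the differences of the members was not tested.

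The comparison of dPOLE4 with Ctrl, which shares its Ctrl libraries with the comparison above, asks what POLE4 loss does in wild-type cells. It gave no calls among the members at any of the 5 times. At T0, T12, T24 and 96 h no feature was called at all by edgeR (0% of 17792, 0% of 17914, 0% of 19093 and 0% of 17580). In the same order 2069, 1150, 1451 and 2164 features had an unadjusted p under 0.05, and DESeq2 called 0, 2, 15 and 25. With the replicate number as a block, which the libraries bear out at T0 and 96 h, edgeR called 6 features at T0 and 142 at 96 h, none of them a member. At T60 0.193% of all features were called. The member furthest from 0 was Lefty1 at T12, with 95.6, 116 and 86 CPM in dPOLE4 against 146, 188 and 119 CPM in Ctrl. The groups did not overlap, and the difference did not pass the adjusted test (log2 fold change -0.60 ± 0.14, adjusted p = 0.438). Lefty2 at T24 also did not overlap, with 76.7, 72.8 and 57.5 CPM against 91, 89.9 and 90.9 CPM (log2 fold change -0.39 ± 0.089, adjusted p = 0.212). Lefty1 at T24 and Acvr2b at T12, T60 and 96 h were lower without overlap as well. Acvr2b held 46.25 to 50.72 CPM against 55.43 to 63.74 CPM at T60. Nodal was higher without overlap at T60, at 12.83 to 15.84 CPM against 10.55 to 12.47 CPM. The share of all features whose groups did not overlap was not counted, so these separations describe levels and are not calls. The lowest adjusted p of any member over the 5 times was 0.0733, at T60. At T0 the 95% intervals of the log2 fold change were -0.03 to 0.22 for Nodal, -0.12 to 0.10 for Tdgf1 and -0.45 to 0.16 for Lefty1. At T60 Tdgf1 held 7.69, 6.66 and 5.04 CPM against 4.99, 3.56 and 5.08 CPM, which overlapped (log2 fold change 0.50 ± 0.19, adjusted p = 0.212).

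In the MCM2-2A background Lefty1 was lower with POLE4 depleted at T12 and T24 of RA, and Tdgf1 was higher at T60. At T12 Lefty1 held 165, 165 and 150.0 CPM in dPOLE4 MCM2-2A against 241, 215 and 272 CPM in Ctrl MCM2-2A. At T24 it held 178, 202 and 179.8 CPM against 302, 350.2 and 308 CPM. The groups did not overlap at either time. The T24 difference, 0.584 times Ctrl MCM2-2A, had a log2 fold change of -0.78 ± 0.071 (adjusted p = 3.41e-05). The T12 difference had a log2 fold change of -0.60 ± 0.078 (adjusted p = 0.00226), close to the threshold. Its call was lost without Ctrl MCM2-2A T12 replicate 1 or 3 and without dPOLE4 MCM2-2A T12 replicate 2 or 3 (-0.60, -0.52, -0.62 and -0.56), and with all groups in the fit (adjusted p = 0.0159). At 96 h Lefty1 held 57.4, 53.8 and 52.2 CPM against 85.5, 98.1 and 75 CPM, without overlap. The log2 fold change there was -0.66 ± 0.10 with an adjusted p of 0.0167, and with the replicate number as a block it was -0.66 with an adjusted p of 3.64e-08, which is a call. DESeq2 called it as well (adjusted p = 1.21e-05). At T0 the difference was -0.26 ± 0.075 (adjusted p = 0.152). At T60 the Lefty1 groups overlapped.

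Tdgf1 was the member called at T60 in this comparison. It held 36.7, 29.7 and 26.9 CPM with depletion against 19.2, 14.1 and 14.6 CPM in Ctrl MCM2-2A, 1.95 times as much and without overlap (log2 fold change 0.96 ± 0.14, adjusted p = 0.00205). The call was lost without Ctrl MCM2-2A T60 replicate 2 or 3 or dPOLE4 MCM2-2A T60 replicate 2 (log2 fold changes 0.88, 0.91 and 1.00). At T0, T12 and T24 its log2 fold changes were -0.17, -0.26 and -0.21, on the other side of 0 and not called. Beside the marker counts that follow, 2.25% of all features were called at T60. The pluripotency marker sum at T60 averaged 904 CPM with POLE4 depleted against 731 CPM without depletion, with 1 of 8 called higher, and the libraries of the groups overlapped. Fibroblast markers summed to 68.3 to 85.5 CPM against 168 to 183 CPM, with 3 of 5 called lower, and primitive endoderm markers to 569 to 614 CPM against 774 to 842 CPM, with 2 of 7 called lower, both without overlap. Neural progenitor markers were also lower, at 153 to 167 against 200 to 233 CPM, with 1 of 5 called. Other lists were higher without overlap, with 1 marker called higher in each. Markers of 2-cell-like cells summed to 198 to 257 against 136 to 185 CPM. Mesoderm markers summed to 17.2 to 22.7 against 11.4 to 13.4 CPM, and trophoblast markers to 263 to 337 against 214 to 242 CPM. The part of these markers in the Tdgf1 result was not tested. Acvr2b and Lefty2 were lower at T60 without a call, at 40.3, 32.6 and 28.3 CPM against 52.8, 45 and 48.1 CPM for Acvr2b (log2 fold change -0.53 ± 0.12, adjusted p = 0.0187) and 45.8, 30.2 and 28.4 CPM against 60.2, 44.4 and 47.1 CPM for Lefty2 (log2 fold change -0.54 ± 0.17, adjusted p = 0.0709). Both were called without dPOLE4 MCM2-2A T60 replicate 1, at -0.68 and -0.79. Nodal was not called at any time. It was higher with depletion without overlap at T0, at 112.5 to 120.9 CPM against 87.7 to 107.9 CPM (log2 fold change 0.27). The same held at T12, at 109 to 113.5 CPM against 91.2 to 101.2 CPM (log2 fold change 0.21). Its 95% intervals were -0.10 to 0.17 at T24 and -0.12 to 0.25 at T60. Other members were lower without overlap and without a call in this comparison. These were Lefty1 at T0 and 96 h, Lefty2 at T12 and T24, Tdgf1 at T12, T24 and 96 h, and Acvr2b at T60. How many of all features were separated in this way was not counted.

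Against all features, none of the 7 members was called at T0 where 0.0715% of features were, 1 at T12 against 0.404%, 1 at T24 against 1.02%, 1 at T60 against 2.25% and none at 96 h against 0.304%. With the replicate number as a block, 143 features were called at T0 in place of 13 and 307 at 96 h in place of 53, where libraries of the same number deviated together. The depletion effect itself was also compared between backgrounds. No member differed at any time, where 0.00526% of features differed at T0, 0.0159% at T12, 0.0351% at T24, 0.1% at T60 and 0% at 96 h. At 96 h 686 features had an unadjusted p under 0.05 and DESeq2 called 1. For Lefty1 the effect in MCM2-2A minus that in wild-type cells was 0.01 ± 0.19 at T12 and -0.43 ± 0.14 at T24 (95% interval -0.71 to -0.15, adjusted p = 0.348). For Tdgf1 at T60 it was 0.47 ± 0.25 (95% interval -0.02 to 0.97, adjusted p = 0.566). The calls on Lefty1 and Tdgf1 in the MCM2-2A background were thus not shown to differ from the effect in wild-type cells.

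Over the 12 RA steps (3 in each of 4 lines) members were called 37 times. In the first 12 h the same 3 members were called in each line, Lefty1 higher and Tdgf1 and Smad7 lower, against 11.3% of features in Ctrl, 11.7% in dPOLE4, 8.65% in Ctrl MCM2-2A and 7.79% in dPOLE4 MCM2-2A. From T12 to T24 Tdgf1 fell in every line, and Lefty1 and Lefty2 were called higher in Ctrl and dPOLE4. The background in that step was 6.97% in Ctrl, 6.3% in dPOLE4, 8.83% in Ctrl MCM2-2A and 7.75% in dPOLE4 MCM2-2A. From T24 to T60 Nodal, Tdgf1, Lefty1 and Lefty2 fell in all 4 lines, against 35.7%, 32%, 31.6% and 25.3% of features called in the same order of lines. All 8 pluripotency markers fell in that step in Ctrl and in dPOLE4, and 7 of 8 in each MCM2-2A line.

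**Figure D4:**
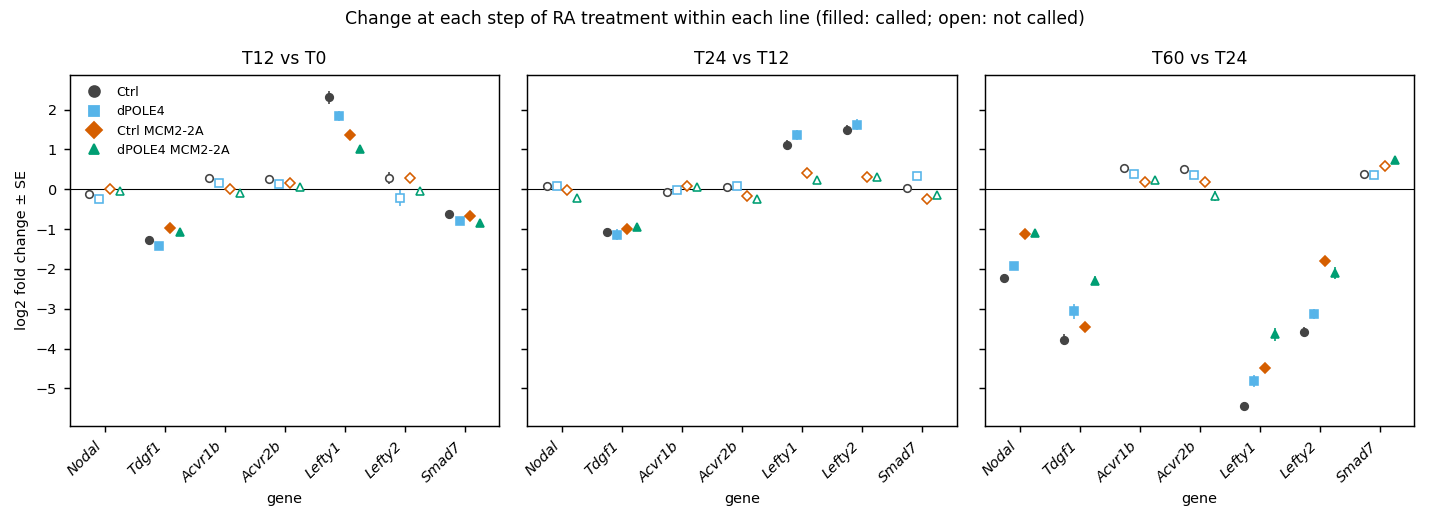
Log2 fold change (± SE) of each gene at each step of RA treatment within each of the 4 lines; filled points are called, open points are not. Lefty1 rises by 2.31 in Ctrl and by 1.02 in dPOLE4 MCM2-2A at the first step, and Nodal, Tdgf1, Lefty1 and Lefty2 fall in all 4 lines at the last.

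The rise of Lefty1 in the first 12 h had a log2 fold change of 2.31 ± 0.17 in Ctrl, 1.83 ± 0.12 in dPOLE4, 1.37 ± 0.088 in Ctrl MCM2-2A and 1.02 ± 0.065 in dPOLE4 MCM2-2A. The difference of this response between Ctrl MCM2-2A and Ctrl was -0.95 ± 0.21 and missed the adjusted threshold (adjusted p = 0.0499, and 0.00726 with all groups in the fit). None of the 7 members was called for this difference, against 0.303% of features. Between dPOLE4 and Ctrl 0% of features differed and between dPOLE4 MCM2-2A and Ctrl MCM2-2A 0%, where 1811 and 737 features had an unadjusted p under 0.05 and DESeq2 called none.

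The later steps were compared between lines after the data had been seen. The rise of Lefty2 from T12 to T24 was smaller in Ctrl MCM2-2A than in Ctrl (difference of the log2 fold changes -1.18 ± 0.16, adjusted p = 0.00141), against 0.189% of features. Within the lines its log2 fold change was 1.5 in Ctrl and 0.31 in Ctrl MCM2-2A, which was not called. From T24 to T60 Nodal, Lefty1 and Lefty2 fell less in Ctrl MCM2-2A. Their falls differed from those in Ctrl by 1.09 ± 0.12 for Nodal, 0.94 ± 0.15 for Lefty1 and 1.76 ± 0.17 for Lefty2 (adjusted p = 2.71e-06, 0.000199 and 5.23e-07), against 8.02% of features. Tdgf1 fell less in dPOLE4 MCM2-2A than in Ctrl MCM2-2A, by 1.18 ± 0.16 (adjusted p = 0.00365), against 0.0306% of features. That call was lost in 7 of the 12 fits that left out 1 library, where the value stayed between 1.03 and 1.31. Between dPOLE4 and Ctrl 0% of features differed in the step to T24 and 0% in the step to T60, and between dPOLE4 MCM2-2A and Ctrl MCM2-2A 0% in the step to T24. In these 3 comparisons 812, 1304 and 1077 features had an unadjusted p under 0.05, and DESeq2 called 0, 1 and 0.

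The rest of the pathway was followed with 43 further genes: other ligands, convertases, receptors, extracellular inhibitors, Smads and partners, intracellular regulators and targets. Between Ctrl MCM2-2A and Ctrl at T0, 5 of the 37 tested were called higher and 7 lower, where 18.9% of all features were called. The median log2 fold change of these 37 genes was -0.09. Foxh1, the DNA-binding partner of SMAD2 and SMAD3, was called higher at all 5 times, with 50.0, 50.7 and 44.5 CPM in Ctrl MCM2-2A against 20.5, 15 and 13.6 CPM in Ctrl at T60 (log2 fold change 1.55 ± 0.12, adjusted p = 1.36e-07). Foxh1 lies on chromosome 15, whose median difference at T60 was 0.47. Inhbb, a subunit of activin B, was also called higher at all 5 times and reached 1.71 at T60, from 0.849 ± 0.34 CPM in Ctrl. Gdf1, a ligand that pairs with Nodal, was called higher at T0, T12, T24 and 96 h, by 1.47 ± 0.25 at T12. On the lower side stood Fst, which codes for the activin-binding inhibitor follistatin, with 1.3, 2.29 and 1.88 CPM against 22.2, 23.4 and 23.6 CPM at T0 (log2 fold change -3.7 ± 0.15, adjusted p = 1.82e-08). Tgfb2, a TGF-beta ligand, was also lower at T0 (log2 fold change -3.36 ± 0.22), from 9.13 ± 2.12 CPM in Ctrl. Inhba, which codes for an activin A subunit, was called lower at 0.0465, 0 and 0.146 CPM against 1.08, 0.969 and 0.758 CPM, which rests on 0 to 6 counts per Ctrl MCM2-2A library. At T12 5 of 39 were called higher and 3 lower, at T24 4 and 3 of 38, at T60 8 and 4 of 39 and at 96 h 9 and 4 of 38. In the same order 14.5%, 17.3%, 16.9% and 15.7% of all features were called.

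In the comparisons of POLE4 depletion these genes were called only at T60 in the MCM2-2A background. In wild-type cells none was called at any time, where at most 0.193% of all features were. In the MCM2-2A background 1 of the 39 tested was called higher and 2 lower at T60, where 2.25% of all features were called. None was called at the other times, where 0.0715% to 1.02% of all features were. Gdf3, a ligand of the Nodal branch, held 9.78, 8.77 and 7.79 CPM in dPOLE4 MCM2-2A against 5.69, 5.72 and 5.31 CPM (log2 fold change 0.65 ± 0.13, adjusted p = 0.00991). Fst and the endoderm factor gene Foxa2 were lower, with log2 fold changes of -0.85 ± 0.14 (adjusted p = 0.00299) and -0.63 ± 0.12 (adjusted p = 0.00633). The number of calls from the list fell to 0 or 1 without Ctrl MCM2-2A T60 replicate 1 or 3, or without dPOLE4 MCM2-2A T60 replicate 1 or 2.

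With RA the list split. In Ctrl 7 of 38 were called higher and 3 lower in the first 12 h, 3 and 2 of 39 from T12 to T24, and 13 and 7 of 39 from T24 to T60. Over all features 11.3%, 6.97% and 35.7% were called in these steps. In Ctrl MCM2-2A the counts were 8 and 3 of 38, 2 and 2 of 39, and 14 and 3 of 39, beside 8.65%, 8.83% and 31.6% of all features. Over all lines and steps, the largest rises named by gene were those of Fst, Tgfb2 and Foxa2 in Ctrl MCM2-2A from T24 to T60. They were 4.28 ± 0.23, 3.87 ± 0.16 and 3.2 ± 0.15 on the log2 scale. In that line Fst went from 0.356, 0.436 and 0.88 CPM to 9.96, 9.18 and 11.2 CPM. In Ctrl the largest log2 fold change of the list in the same step was 2.87. The ligand genes Gdf3 and Inhbb also fell from T24 to T60, with log2 fold changes in dPOLE4 of -3.49 ± 0.14 and -3.04 ± 0.32. Gdf3 held 48.2, 52.4 and 54.8 CPM at T24 and 6.09, 4.66 and 3.22 CPM at T60 in that line. Fst had first fallen in dPOLE4, with a log2 fold change of -2.09 ± 0.11 in the first 12 h. In dPOLE4 the counts higher and lower over the 3 steps were 6 and 5 of 39, 3 and 2 of 40, and 13 and 8 of 39. The shares of all features there were 11.7%, 6.3% and 32%. In dPOLE4 MCM2-2A the counts were 6 and 4 of 40, 1 and 2 of 39, and 11 and 5 of 39, beside 7.79%, 7.75% and 25.3% of all features.

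The genes whose log2 CPM followed each member most closely over the 16 group means of the RA experiment were taken from 20347 genes, as a description with no test. For Lefty1 the closest was Acan (Pearson r = 0.976), and Lefty2 itself ranked 690th (0.789). Among the genes close to Lefty2 were Pced1b (0.953) and Platr5 (0.951). For Nodal the closest were Prss42 and Foxh1 (both 0.986), and Lefty2 stood at 0.907. For Tdgf1 the closest was its pseudogene Tdgf1-ps1 (0.998), followed by Fkbp5 (0.991) and Sox15 (0.990). Smad7 was closest to Prr13 (0.941) and Cish (0.931), Acvr1b to Desi1 (0.976) and Fmnl3 (0.974), and Acvr2b to Smc1a (0.886). The points of these correlations share 4 lines and 4 times.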

How the data were processed

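The authors deposited raw read counts per gene and repeat subfamily for 60 libraries, in 1 table for 48 libraries (T0, T12, T24 and T60) and 1 for 12 libraries (96 h). Per their methods, rRNA-depleted, strand-specific libraries were sequenced as paired-end reads, trimmed with cutadapt 4.2, mapped to mm10 with STAR with multimapping allowed and counted with TEcount on GENCODE annotation. How reads shared by paralogs and the strand were treated in counting is not given in the sources used here. Gene names and positions came from the GENCODE annotation of GRCm38.

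The members and gene lists were chosen with earlier results of these data known. Counts were tested with edgeR 4.0.16 (R 4.3.3, filterByExpr with a minimum count of 10 and a minimum total of 15, TMM, quasi-likelihood F test) on the 2 groups compared, or on 4 groups for a difference of differences, over all features that passed the filter. The call took an adjusted p under 0.01 and a log2 fold change beyond 0.58. DESeq2 1.42.0, other scalings and filters, the replicate block and leaving out each library were alternatives. All 7 members are named. From the pathway list, up to 3 called genes per direction with groups that do not overlap are named in each family of comparisons, by size of change. Results on some genes are not reported here. The code was tested on simulated counts. Libraries of the same replicate number, which the labels do not tie to a shared batch, deviated together (every correlation over 0.1) in 2 of 5 comparisons of dPOLE4 with Ctrl (T0 and 96 h), 2 of the 5 depletion comparisons in the MCM2-2A line (T0 and 96 h), 1 of 5 of Ctrl MCM2-2A with Ctrl (96 h) and 1 of 12 RA steps (T12 to T24 in Ctrl). The 3 biological replicates of a group, as the methods name them, were of 1 cell line by their titles. The p-values thus measure the spread between these samples and not between clones.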

Additional observations from a re-analysis of the deposited data

Results flagged for a closer look

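Each result here was singled out because an RA step differed between lines in the test of the difference itself. 5 concern the members and were given above. Between Ctrl MCM2-2A and Ctrl the step from T12 to T24 differed by -1.18 for Lefty2, and the step from T24 to T60 by 0.94 for Lefty1, 1.76 for Lefty2 and 1.09 for Nodal. Between dPOLE4 MCM2-2A and Ctrl MCM2-2A the step from T24 to T60 differed by 1.18 for Tdgf1.

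The other 6 concern other genes of the pathway, all between Ctrl MCM2-2A and Ctrl on the log2 scale. In the first 12 h Mixl1, a mesendoderm factor gene, differed by 1.86, a call lost without any 1 of the 12 libraries of Ctrl and Ctrl MCM2-2A at T0 and T12. From T24 to T60 Gdf3 differed by 0.78, Tgfb2 by 1.27, Fst by 2.33, Foxh1 by 0.89 and Pcsk6, a proprotein convertase gene, by 0.62.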

How the results depend on the processing

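No result reversed under any alternative. Among members, the 22 calls between Ctrl MCM2-2A and Ctrl ranged from 21 to 23 and the 37 calls over RA steps from 36 to 38 when each library was left out. The 3 calls of dPOLE4 MCM2-2A against Ctrl MCM2-2A ranged from 2 to 5, with 5 without dPOLE4 MCM2-2A T60 replicate 1, and the 5 calls on differences of the later RA steps from 4 to 6. Of the alternatives tried on single member results, 1057 kept the side of the threshold, 29 gained a call and 24 lost one.

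With no filter, member calls went from 0 to 1 for dPOLE4 against Ctrl, from 0 to 1 for differences in the first 12 h and from 5 to 9 for differences of the later steps, and pathway calls from 3 to 5 for dPOLE4 MCM2-2A against Ctrl MCM2-2A and from 6 to 10 for the later steps. With all groups in the fit, member calls for the first 12 h went from 0 to 1 (Lefty1). With no fold change cutoff, pathway calls went from 0 to 1 for dPOLE4 against Ctrl, from 3 to 6 for dPOLE4 MCM2-2A against Ctrl MCM2-2A, from 52 to 87 for Ctrl MCM2-2A against Ctrl and from 133 to 213 for the RA steps. Leaving out each library, pathway calls for dPOLE4 MCM2-2A against Ctrl MCM2-2A ranged from 0 to 4 and those for the first 12 h from 0 to 1. Except for the fold change cutoff and the smaller number of libraries, the cause was not tested.

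The replicate block gave 1 member call for dPOLE4 against Ctrl in place of 0 (Lefty1 at T12, log2 fold change -0.59, adjusted p = 0.00166) and 0 pathway calls for the first 12 h in place of 1. In comparisons whose replicate numbers were not paired, it ended the calls of Lefty1 at T12 in dPOLE4 MCM2-2A against Ctrl MCM2-2A (-0.60, adjusted p = 0.0332) and in Ctrl MCM2-2A against Ctrl (0.71, adjusted p = 0.015), and Smad7 gained a call from T24 to T60 in Ctrl MCM2-2A (0.58). It changed no other member call beside that of Lefty1 at 96 h given above. The 3 libraries per group and 39 counts of Tdgf1 in the lowest Ctrl T60 library limit the precision at T60.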
